A study of Mus musculus with 4 samples.

Results

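The nuclear genome encodes most subunits of the 5 complexes that carry out oxidative phosphorylation in mitochondria. Their transcripts were measured here in Ret-EGFP-positive cells sorted from dorsal root ganglia of newborn mice. Genes were taken by symbol (Nduf followed by a, b, c, s or v and a number; Sdha to Sdhd; Uqcr; Cox4 to Cox8; Atp5), leaving out assembly factors and pseudogenes. The rule gave 84 genes of the 41388 in the files: 37 of complex I, 4 of complex II, 8 of complex III, 18 of complex IV and 17 of complex V. It takes a few genes that carry a subunit's name without being a fixed part of the complex, such as Cox7a2l and Atp5s, and it does not take the complex III gene Cyc1.

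Complex I (NADH dehydrogenase), complex II (succinate dehydrogenase), complex III (cytochrome bc1) and complex IV (cytochrome c oxidase) pass electrons from NADH and succinate to oxygen, and all but complex II pump protons across the inner mitochondrial membrane. Complex V, the ATP synthase, uses that gradient to make ATP. Complexes I, III, IV and V also hold a few subunits encoded by mitochondrial DNA, so both genomes must supply their parts, whereas complex II is encoded by the nucleus alone. Sensory neurons depend on this supply of ATP for ion pumping and for transport along long axons.

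There were 4 libraries, 1 of a female (female A) and 3 of males (A, B and C), and every pool came from a single animal. All were C57BL/6 mice at postnatal day 2 with an EGFP reporter of Ret, a receptor of neurotrophic ligands of the GDNF family; the genotype label names the transgene Tg(Ret-EGFP)SJ, whereas the design text describes EGFP placed in the Ret locus of heterozygotes. Each male pool held 20 ganglia and the female pool 40, from thoracic level 11 to sacral level 1. In the labels of pool and treatment, female A and male A carry the words P2 mouse, while the other two males carry the word embryo. The former are called the P2-mouse pair and the latter the embryo pair; no source used here says what the labels mark beyond these words. Where 4 values are listed, their order is female A, male A, male B, male C.

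Gene counts summed to between 17388493 and 28066448 per library. The sorted cells held the sensory neuron markers in every library: the 10 markers, among them Tubb3, Avil, Prph and Scn10a, summed to 8409 and 7937 CPM (counts scaled to the library's total) in the P2-mouse pair and to 13940 and 13040 CPM in the embryo pair. Schwann cell and fibroblast markers differed in the opposite direction. The 13 Schwann cell markers summed to 5471, 8672, 3160 and 3221 CPM and the 10 fibroblast markers to 1539, 1690, 337 and 359 CPM. Satellite glia markers (10 genes) ranged in sum from 631 to 1191 CPM, and no marker of these 4 lists was at 0 over all libraries. Male B stood apart from the other libraries in a few subunit genes. In such mixtures, fewer cells of a type and less RNA per cell cannot be told apart.

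The subunit genes made up 1.58%, 1.60%, 1.97% and 1.94% of all gene counts. Their median level, in RPKM, which is CPM per kilobase of exon length, was 105, 108, 129 and 127. Both libraries of the P2-mouse pair thus lay below both of the embryo pair, and the 2 libraries of a pair differed little. Of the 84 genes, 46 had a mean above 100 RPKM and 13 a mean under 10 RPKM.

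**Figure D1:**
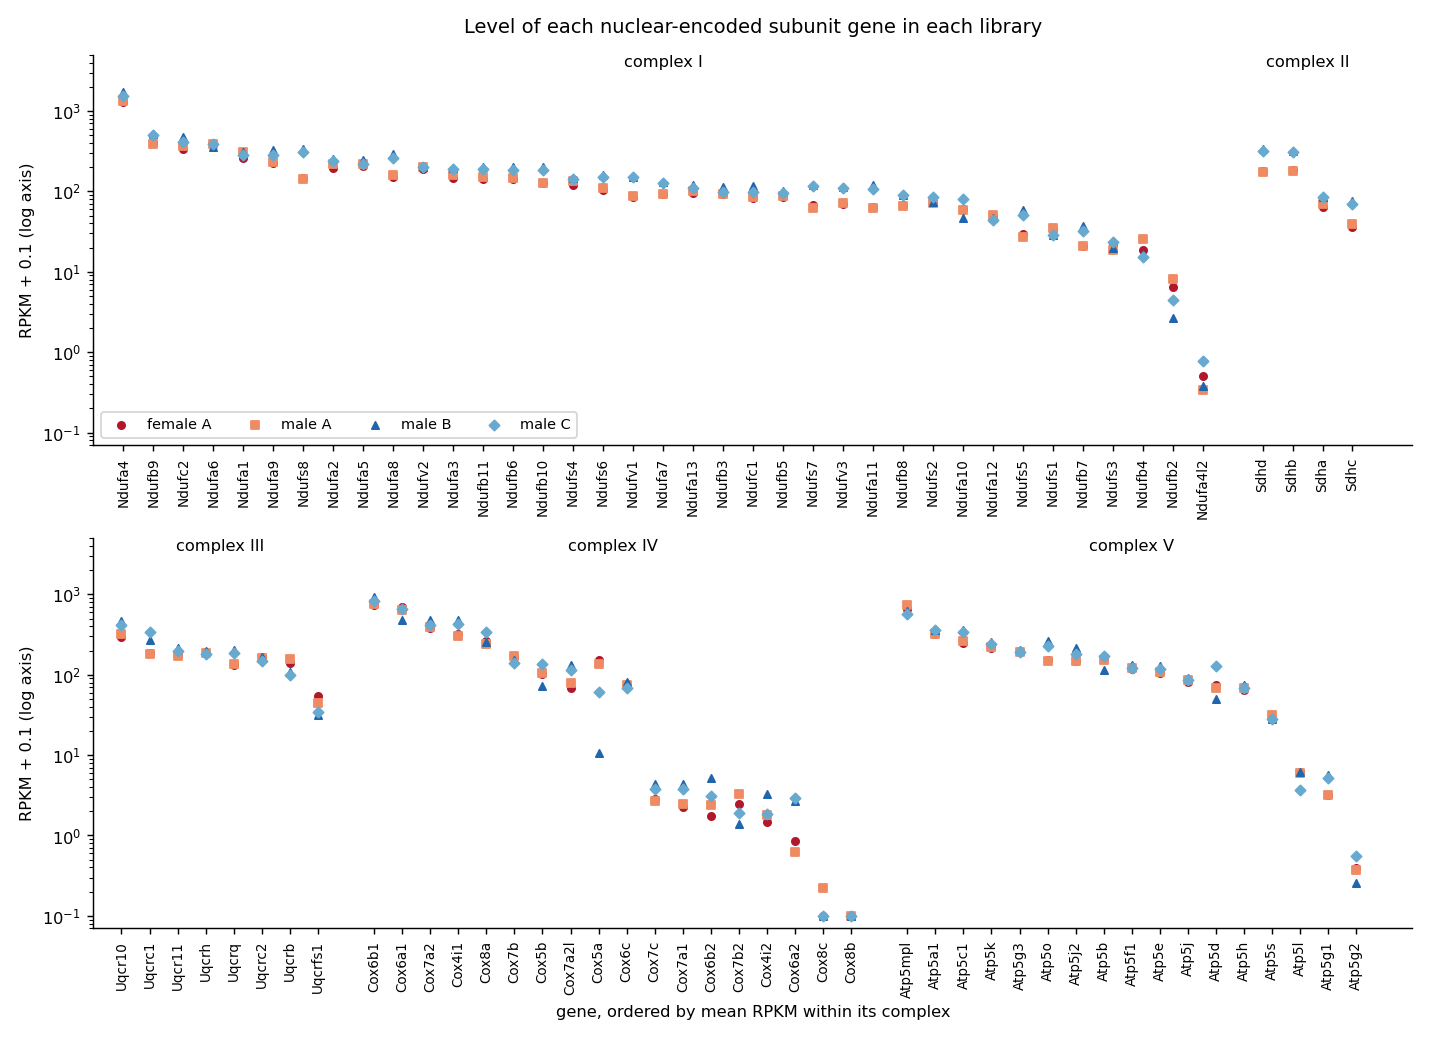
Level of each of the 84 genes in each library, as RPKM plus 0.1 on a log axis, with genes ordered by their mean within each complex and 1 point per library. Ndufa4 stands highest, and the low genes are mainly second isoforms of complex IV.

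The highest gene of all, Ndufa4, was placed under complex I by its symbol. Ndufa4, long counted with complex I and now known as a subunit of complex IV, stood at 1299, 1320, 1744 and 1534 RPKM, the rank of 19 among all genes by mean RPKM. Ndufb9, an accessory subunit of the membrane arm, followed at 451 ± 64.1 RPKM (SD, n = 4 libraries). In the catalytic arm, Ndufv1, which carries the flavin that accepts electrons from NADH, stood at 85.5, 87.0, 151.5 and 149.8 RPKM, and Ndufs1, the largest iron-sulfur subunit, at 33.1, 35.4, 28.3 and 28.6 RPKM. For Ndufv1 the embryo pair was the higher and for Ndufs1 the lower, without overlap in either. The median over the 37 genes was 93.5, 93.3, 130.5 and 125.8 RPKM.

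All 4 complex II genes were expressed above 30 RPKM in every library. Sdhd, a membrane anchor, stood at 177.7, 175.3, 333.0 and 315.6 RPKM, and Sdhb, the iron-sulfur subunit, at 185.7, 179.2, 321.6 and 309.2 RPKM. Sdha, the flavoprotein that oxidises succinate, stood at 63.7, 69.1, 86.0 and 84.3 RPKM. The other anchor, Sdhc, was the lowest at 36.2, 39.3, 75.4 and 69.0 RPKM. The 4 genes shared a pattern: the P2-mouse pair lay below the embryo pair in each, and the libraries of a pair were close.

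Averaged over the libraries, complex III had the highest median of the 5 complexes, at 170.5 and 166.5 RPKM in the P2-mouse pair and 199.3 and 184.4 RPKM in the embryo pair. The small subunit gene Uqcr10 led at 375 RPKM on average, followed by Uqcrc1, a core subunit, at 186.9, 179.3, 271.6 and 335.4 RPKM. Uqcrfs1, the Rieske iron-sulfur protein, was the lowest at 55.0, 44.3, 31.2 and 33.9 RPKM, with the P2-mouse pair the higher. By median RPKM complex III ranked first in the P2-mouse pair and complex II in the embryo pair. Complex V came next in 3 libraries, then complex I, with complex I ahead of complex V in male B. Complex IV was last in all 4, where its median takes in low isoform genes such as Cox4i2 and Cox8b. By the sum of mean RPKM, complex IV (3040) stood behind complex I (6601) alone, where the sum of complex I takes in Ndufa4 at a mean of 1474.

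Complex V held Atp5a1 and Atp5b, which form the catalytic head. Atp5a1 stood at 319.5, 317.5, 359.9 and 364.2 RPKM and Atp5b at 158.7, 151.7, 113.3 and 169.2 RPKM. For Atp5b, male B alone was low and the pairs overlapped. The highest gene was Atp5mpl, a small membrane protein of the complex, at 645 ± 68.9 RPKM (SD, n = 4 libraries). The medians of complex V were the most even of the 5, from 117 RPKM in female A to 127 in male C.

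Several subunits have alternative isoform genes, and in each such group 1 gene carried most of the signal in all 4 libraries. In complex IV, Cox6a1 stood at 699, 646.8, 482.3 and 652.5 RPKM, while Cox6a2, the isoform of heart and skeletal muscle, stood at 0.758, 0.524, 2.55 and 2.81 RPKM. Cox4i1 made up at least 99.3% of the Cox4 pair by RPKM in every library, Cox6b1 at least 99.4% against the testis isoform Cox6b2, and Cox7b at least 98.15% against Cox7b2. Cox7a1, another muscle isoform, took 0.475% to 0.687% of its group and Cox7a2 between 77.8% and 84.5%. The related Cox7a2l, a factor of supercomplex assembly, took 15% to 21.6%, but 54.1% of its coding 50-base words also occur in other annotated genes. Cox8b, the muscle isoform of the Cox8 group, had 0 counts in all 4 libraries, which allows up to 0.107 CPM in the deepest library and 0.173 CPM in the shallowest (3 counts, counting error only), and Cox8c had 1 count in male A. Ndufa4l2, known to be induced by hypoxia, had 4 to 16 counts per library.

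**Figure D2:**
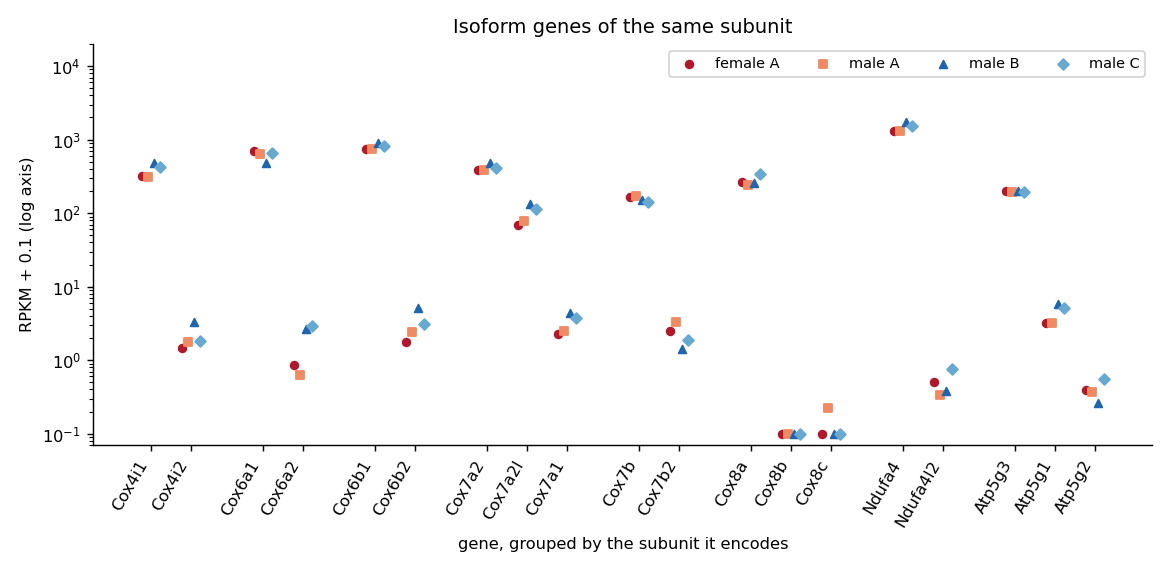
Levels of genes that encode isoforms of the same subunit, as RPKM plus 0.1 on a log axis, 1 point per library. In each of the 8 groups a single gene stands highest in all 4 libraries, and Cox8b lies at 0 counts throughout.

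Cox8a, the expressed gene of its group, stood at 262.8, 244.1, 258.4 and 338.7 RPKM, and its promoter is given beside that of the silent Cox8b. Both sequences run 5′ to 3′ on the gene's strand, from 250 bases before to 50 after the RefSeq start (GRCm38.p6), and capitals mark the core motif of ETS factors, CCGGAAG or its reverse complement CTTCCGG. Cox8a lies on the minus strand at chr19:7217567-7217866, holds 19 CpG dinucleotides and has the motif at 2 places. Cox8b lies on the minus strand at chr7:140900397-140900696, holds 2 CpG dinucleotides and none of the 3 motifs searched.
Cox8a: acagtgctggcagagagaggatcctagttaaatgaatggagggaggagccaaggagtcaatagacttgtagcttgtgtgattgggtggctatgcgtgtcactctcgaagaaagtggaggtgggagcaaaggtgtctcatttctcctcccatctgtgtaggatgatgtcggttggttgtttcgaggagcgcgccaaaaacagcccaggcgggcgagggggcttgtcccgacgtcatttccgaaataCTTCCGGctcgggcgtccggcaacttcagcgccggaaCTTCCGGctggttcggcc
Cox8b: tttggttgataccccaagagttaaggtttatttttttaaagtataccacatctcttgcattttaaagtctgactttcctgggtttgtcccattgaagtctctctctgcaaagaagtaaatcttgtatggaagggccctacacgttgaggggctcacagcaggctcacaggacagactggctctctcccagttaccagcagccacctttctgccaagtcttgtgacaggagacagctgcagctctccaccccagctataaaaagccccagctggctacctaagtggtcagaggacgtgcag

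Of the 3 genes of the ATP synthase c subunit, which encode the same mature protein, Atp5g3 took 97.2% to 98.3% by RPKM, with 198.1, 191.8, 202.7 and 192.9 RPKM. Atp5g1 and Atp5g2 stood at means of 4.21 and 0.297 RPKM. These values are uncertain, since 99.7% and 100% of their coding 50-base words also occur in other annotated genes, and no source used here says how the authors treated reads with several matches. The same holds for Cox7c, Atp5l and Ndufb4, whose coding words were all shared and which were listed at means of 3.30, 5.43 and 18.9 RPKM. In all, 14 of the 84 genes shared over 50% of their coding words.

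The pairs of libraries were then compared with edgeR's quasi-likelihood test, fitted over 15568 genes with Benjamini-Hochberg adjustment. The comparison sets the P2-mouse pair against the embryo pair and is not a comparison of the sexes, although the only female is in the first pair. Of the 81 subunit genes tested, 45 were lower in the P2-mouse pair (55.6%) and 4 higher (4.94%), and 32 did not pass; over all genes 20.0% were called lower and 22.3% higher. The median log2 fold change was -0.35 for the subunit genes and 0.02 for all genes. In 52 of the 81 both P2-mouse libraries lay below both embryo libraries in RPKM and in 12 above, where 30.8% of all tested genes lay below and 42.5% above. The share of lower calls was above that background and the share of higher calls below it. A fit with sex as a term leaves male A as the pair's only library against the embryo pair. Fewer subunit genes passed in it, with a median of -0.36.

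**Figure D3:**
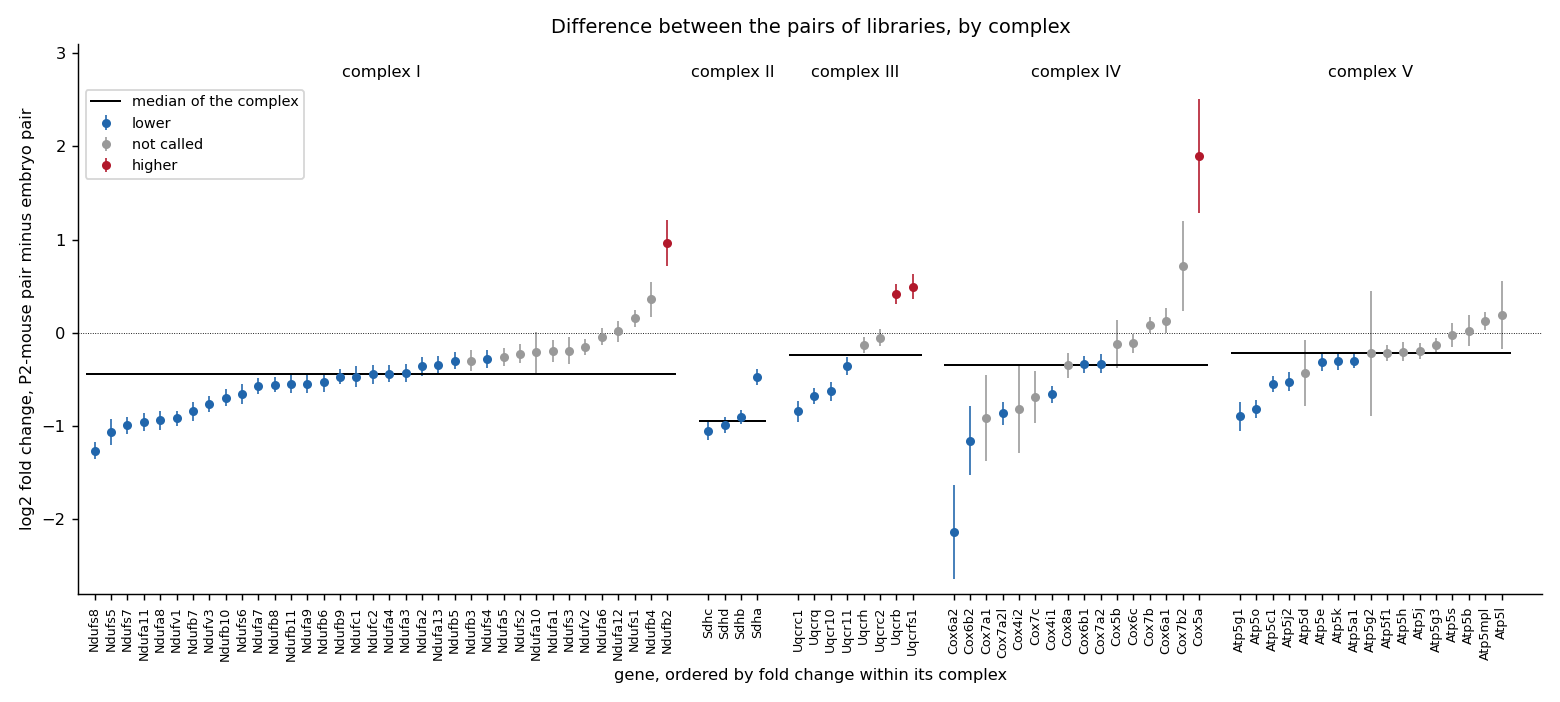
Log2 fold change of the P2-mouse pair over the embryo pair for the 81 tested genes, with its standard error as a bar, ordered within each complex. Blue points were called lower, red points higher and grey points not called at an adjusted p of 0.05, and black lines give the median of each complex, which is lowest in complex II at -0.95.

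In complex I, 24 of 36 tested genes fell and 1 rose (median log2 fold change -0.44), where 20.0% of all genes were called lower and 22.3% higher. Ndufs8 (ENSMUSG00000059734, chromosome 19, 3908870 to 3912717), an iron-sulfur subunit close to the site where ubiquinone is reduced, stood at 145.0, 143.9, 335.4 and 306.3 RPKM. The pairs did not overlap, and its log2 fold change was -1.27 (SE 0.09, adjusted p = 0.000141), the largest fall among subunit genes with a mean of at least 5 CPM. Ndufs7, the other iron-sulfur subunit of the same region, stood at 67.6, 61.5, 120.3 and 117.2 RPKM and fell by 0.99 on the log2 scale (adjusted p = 0.000253). The accessory subunit genes Ndufs5 and Ndufa11 fell by 1.07 and 0.96 on that scale, and the flavin-binding Ndufv1 by 0.92. Ndufs5 shared 72.5% of its coding words with other annotated genes. Ndufs1 did not pass, at 0.15 (SE 0.09, adjusted p = 0.193). In a fit with offsets for GC content and length in each library, Ndufs1 was called lower, at -0.39 (adjusted p = 0.0111). The gene that rose was Ndufb2, an accessory subunit of the membrane arm at 6.42, 8.14, 2.59 and 4.30 RPKM, by 0.96 (SE 0.25, adjusted p = 0.0161); 51.1% of its coding words occur in other genes.

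All 4 genes of complex II fell, where 20.0% of all genes were called lower. The log2 fold changes were -1.05 for Sdhc, -0.99 for Sdhd and -0.90 for Sdhb, with adjusted p of 0.000255, 0.000194 and 0.000227, and -0.47 for Sdha (adjusted p = 0.00431). None of the 4 shared over 1% of its 50-base words with other genes. The promoters of the complex II genes Sdhd and Sdhb and of the complex I genes Ndufs8 and Ndufa11 are given in the same window and build. Capitals mark the ETS core CCGGAAG and the NRF1 core GCATGCGC on either strand. These 4 do not stand for all genes that fell. The promoters of Sdha, Ndufs5 and Ndufv1, which also fell, held none of the motifs searched. The promoters shown lie at chr9:50603800-50604099 (minus strand) for Sdhd, chr4:140961021-140961320 (plus strand) for Sdhb, chr19:3912725-3913024 (minus strand) for Ndufs8 and chr17:56717512-56717811 (plus strand) for Ndufa11.
Sdhd: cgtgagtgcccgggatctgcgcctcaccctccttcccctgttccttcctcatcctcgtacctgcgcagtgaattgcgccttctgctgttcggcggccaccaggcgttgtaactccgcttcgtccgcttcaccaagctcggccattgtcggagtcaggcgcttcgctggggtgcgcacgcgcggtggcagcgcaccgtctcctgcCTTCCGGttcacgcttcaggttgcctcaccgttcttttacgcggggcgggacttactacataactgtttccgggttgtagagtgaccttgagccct
Sdhb: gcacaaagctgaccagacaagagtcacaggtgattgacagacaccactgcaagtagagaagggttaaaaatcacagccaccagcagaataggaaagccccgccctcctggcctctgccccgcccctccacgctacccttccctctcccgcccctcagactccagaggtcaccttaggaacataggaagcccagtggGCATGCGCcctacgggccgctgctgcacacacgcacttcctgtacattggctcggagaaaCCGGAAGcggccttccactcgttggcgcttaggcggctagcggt
Ndufs8: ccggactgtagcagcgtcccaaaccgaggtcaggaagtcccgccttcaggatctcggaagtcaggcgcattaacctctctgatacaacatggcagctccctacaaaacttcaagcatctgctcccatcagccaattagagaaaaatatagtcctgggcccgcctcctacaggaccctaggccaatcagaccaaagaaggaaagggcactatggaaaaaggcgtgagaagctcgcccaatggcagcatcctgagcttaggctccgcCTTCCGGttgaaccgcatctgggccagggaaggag
Ndufa11: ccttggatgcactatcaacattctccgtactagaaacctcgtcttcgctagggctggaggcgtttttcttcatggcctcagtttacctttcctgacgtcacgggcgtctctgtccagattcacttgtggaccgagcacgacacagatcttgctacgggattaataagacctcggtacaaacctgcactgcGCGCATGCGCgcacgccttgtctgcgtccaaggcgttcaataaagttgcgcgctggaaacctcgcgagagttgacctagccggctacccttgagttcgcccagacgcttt

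NRF1 and GABP, an ETS family factor, are known regulators of nuclear genes of mitochondrial proteins, and YY1 is another factor linked to such genes. A promoter sequence was found for 68 of the 84 genes, 73 promoters in all. The ETS core occurred in 21.9% of them, against 8.86% of the 32851 promoters in the table. The NRF1 core occurred in 13.7%, against 2.71%, and the YY1 core AAGATGG in 15.1%, against 6.34%. The longer palindromic form of the NRF1 core, which contains the core, occurred in 6.85%, against 0.971%. The median count of CpG dinucleotides was 19 in these promoters and 7 in all. Subunit genes under a mean of 10 RPKM had 9 promoters and those at 10 or above had 64. In that order, the ETS core occurred in 11.1% and 23.4%, the NRF1 core in 22.2% and 12.5% and the YY1 core in 11.1% and 15.6%. Between genes called lower and genes not called the shares were 22.5% and 24.1% for the ETS core, 15% and 13.8% for the NRF1 core and 20.0% and 10.3% for the YY1 core, over 40 and 29 promoters; these are counts of letters and say nothing of binding.

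Complex III was split, where 20.0% of all genes were called lower and 22.3% higher. Uqcrc1 fell by 0.84 on the log2 scale (adjusted p = 0.000926) and Uqcr10 by 0.63, with 4 of 8 genes lower in all and a median of -0.24. The 2 genes that rose were Uqcrfs1, by 0.50 (SE 0.14, adjusted p = 0.0222), and Uqcrb, a subunit near the ubiquinone site, by 0.42 (SE 0.11, adjusted p = 0.0173). Uqcrb stood at 140.0, 158.3, 106.8 and 99.9 RPKM, without overlap of the pairs, but 72.9% of its coding words occur in other genes. Without male B, Uqcrfs1 was at 0.43 with an adjusted p of 0.0556.

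In complex IV, 6 of 16 tested genes fell and 1 rose (median -0.34), where 20.0% of all genes were called lower and 22.3% higher. Cox4i1, the main isoform of a subunit known to bind ATP, stood at 316.4, 305.7, 483.1 and 424.0 RPKM and fell by 0.66 on the log2 scale (adjusted p = 0.00111). Cox7a2l stood at 68.3, 78.5, 131.8 and 115.2 RPKM and fell by 0.87 (adjusted p = 0.00107), but 54.1% of its coding words occur in other genes. Cox6a2 fell by 2.14, but from 38 and 46 counts in the embryo pair to 14 and 6 in the P2-mouse pair. Skeletal muscle markers (9 genes) summed to 8.44, 8.34, 14.8 and 14.7 CPM and cardiac markers (5 genes) to between 3.00 and 5.59 CPM; their part in the Cox6a2 values was not tested. Cox6b2, at means under 10 RPKM, fell by 1.16, and Cox6b1 and Cox7a2 by 0.34 and 0.33. Without male B neither Cox6b2 (-0.76) nor Cox7a2 (-0.23) was called. Cox6a1 and Cox7b did not pass, at 0.13 and 0.09.

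In complex V, 7 of 17 genes fell and none rose (median -0.22), where 20.0% of all genes were called lower and 22.3% higher. Atp5g1 fell by 0.90 and Atp5a1 by 0.30 on the log2 scale (adjusted p = 0.00272 and 0.0145). Atp5b was at 0.02 (SE 0.17, adjusted p = 0.93) and at -0.25 without male B. Atp5g3 was at -0.13 and Atp5mpl at 0.12.

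Male B and male C, which share a pool description, differed from each other in some genes. Of the tested subunit genes, 6 were over 1.5-fold lower in male B than in male C and 3 over 1.5-fold higher. No tested subunit gene differed by over 1.5-fold between female A and male A. The same counts were not made over all genes, so they do not set the subunit genes apart. Cox5a, a matrix-side subunit of complex IV (ENSMUSG00000000088, chromosome 9, 57521232 to 57532424), stood at 151.7, 135.1, 10.6 and 60.3 RPKM. It was high in both P2-mouse libraries and lowest in male B, at 165 counts against 1036 in male C. Its log2 fold change between the pairs was 1.90 (SE 0.61, adjusted p = 0.04). It was 1.12 without male B, which leaves male C as the only embryo library. Gm26631, annotated over the same locus, overlaps 38.7% of its exon length, and without the strand setting reads of the 2 cannot be told apart. In all, 8 subunit genes were overlapped over more than 10% of their exon length.

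Atp5d, Cox5b and Ndufa10, named here after their values were seen, also lay lowest in male B and highest in male C. Atp5d, of the central stalk of the ATP synthase, stood at 73.4, 68.2, 49.3 and 127.1 RPKM. Cox5b, with 61.5% of its coding words found in other genes, stood at 101.9, 105.2, 71.4 and 136.3 RPKM and Ndufa10 at 60.9, 58.1, 46.5 and 80.7 RPKM. The pairs overlapped in all 3, and none passed the test. Without male B, which leaves male C as the only embryo library, their log2 fold changes were -0.97, -0.52 and -0.57. The genes were picked with male C highest, so these falls follow from the choice and add no support. The others over 1.5-fold lower in male B were Ndufb2 and Atp5g2, and the 3 higher in male B, Cox6b2, Cox4i2 and Atp5l, stood at means under 10 RPKM.

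**Figure D4:**
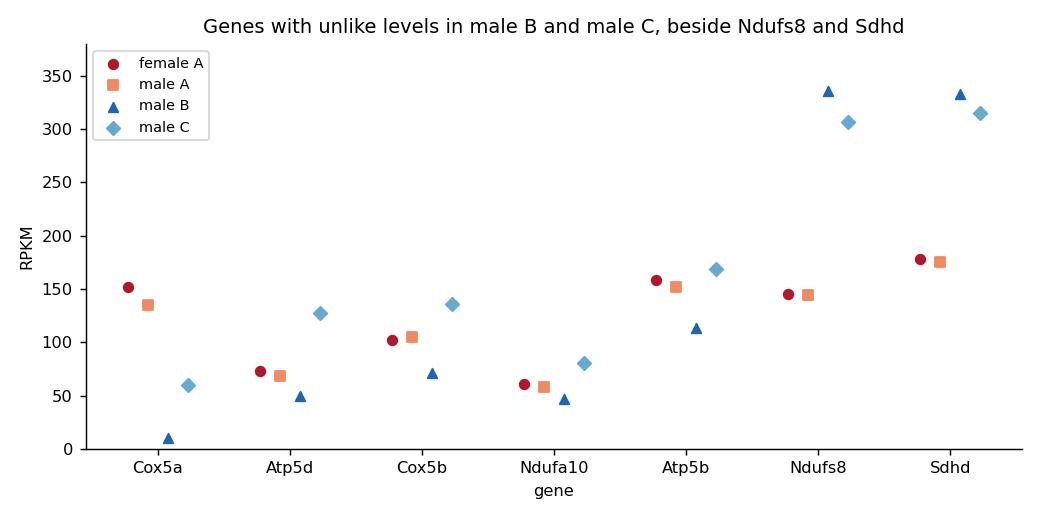
RPKM in each library for 5 genes with unlike levels in male B and male C and, for comparison, Ndufs8 and Sdhd. Male B lies lowest for Cox5a, Atp5d, Cox5b, Ndufa10 and Atp5b, while male B and male C lie close together for Ndufs8 and Sdhd.

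Base composition moved with these differences. Across the 81 genes the log2 fold change had a Spearman rho of -0.37 with the GC content of the gene, and across all genes -0.44, as a description over genes that share their libraries. The median GC content was 50.2% for the subunit genes and 49.3% for all, and their median exon length 1287 against 3581 bases. With offsets for GC content and length in each library, 34 of the 81 genes were lower and 6 higher, against 19.3% lower and 13.7% higher over all genes, and the median was -0.26. Of the 45 lower genes 28 were lower in both fits, among them Ndufs8 at -0.71 (adjusted p = 0.00109) and all 4 complex II genes, from -1.04 for Sdhc to -0.52 for Sdha. Of the 4 higher genes only Uqcrfs1 was called in both, and 5 others (Ndufa6, Ndufa12, Ndufb4, Cox6a1 and Atp5mpl) were called higher with the offsets. Cox4i1 moved from -0.66 to -0.12 and was no longer called, and Ndufa4 from -0.44 to -0.94.

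The female library was compared with the 3 males by the same test, over 16708 genes. No subunit gene of 82 tested was called, as over all genes (0.0%); DESeq2 and limma-voom called no subunit gene either. The lowest adjusted p of a subunit gene was 0.951, and no unadjusted p was under 0.05. Among the 81 subunit genes tested between the pairs, the female lay below the range of the males in 34 and above it in 5. The same count was not made over all genes, so it does not set the subunit genes apart. The median log2 fold change was -0.31, against -0.05 when the pool label was a term, which sets the female against male A. Sdhc, for example, stood at 36.2 RPKM in the female and 61.2 ± 19.3 RPKM in the males (SD, n = 3), a log2 fold change of -0.86 (SE 0.50), and of -0.13 with the term. Cox7a2l was at -0.77 and -0.22, and Uqcrfs1 at 0.51 and 0.29. Male A resembled the female in these genes, with 39.3 RPKM of Sdhc.

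Other genes of the mitochondrion were counted in the same comparison of the pairs, where 20.0% of all genes were called lower and 22.3% higher. Of 43 tested assembly factors of the complexes 22 fell and 2 rose (median -0.38), and of 75 mitochondrial ribosomal proteins, which build the machinery that translates mitochondrial DNA's messages, 48 fell and 2 rose (median -0.46). Of 17 genes of the citric acid cycle and pyruvate dehydrogenase 11 fell and 2 rose. Mdh2, malate dehydrogenase, stood at 772.5, 790.7, 1484 and 1363 CPM and fell by 0.98 on the log2 scale. Of 21 mitochondrial carrier and membrane genes 7 fell and 3 rose, and of 19 further oxidative phosphorylation genes outside the symbol rule 8 fell and 1 rose. Cyc1, the haem-bearing subunit of complex III, did not pass, at 71.4, 62.7, 26.2 and 51.2 CPM (log2 fold change 0.68, adjusted p = 0.0814), but was called higher with the offsets for GC content and length, at 1.24 (adjusted p = 0.00374). Of 17 regulators of mitochondrial biogenesis 4 rose and 1 fell (median 0.25), where 22.3% of all genes rose; with the offsets 1 rose and 4 fell (median 0.05). Gabpa, the ETS subunit of GABP, rose by 1.47, from 12.6 and 13.5 CPM in the embryo pair to 38.5 and 39.9 CPM in the P2-mouse pair, and by 0.81 with the offsets (adjusted p = 0.00336). Nrf1 was at -0.01 (adjusted p = 0.939) and the coactivator gene Ppargc1a at -0.05 (adjusted p = 0.891), and both were called lower with the offsets, at -0.60 and -0.75 (adjusted p = 0.00879 and 0.0457). With the offsets 20 assembly factors, 35 ribosomal proteins, 12 genes of the citric acid cycle, 8 carrier and membrane genes and 6 of the further genes were lower, and 2, 3, 0, 1 and 3 were higher. Over all genes 19.3% were lower and 13.7% higher with the offsets.

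**Figure D5:**
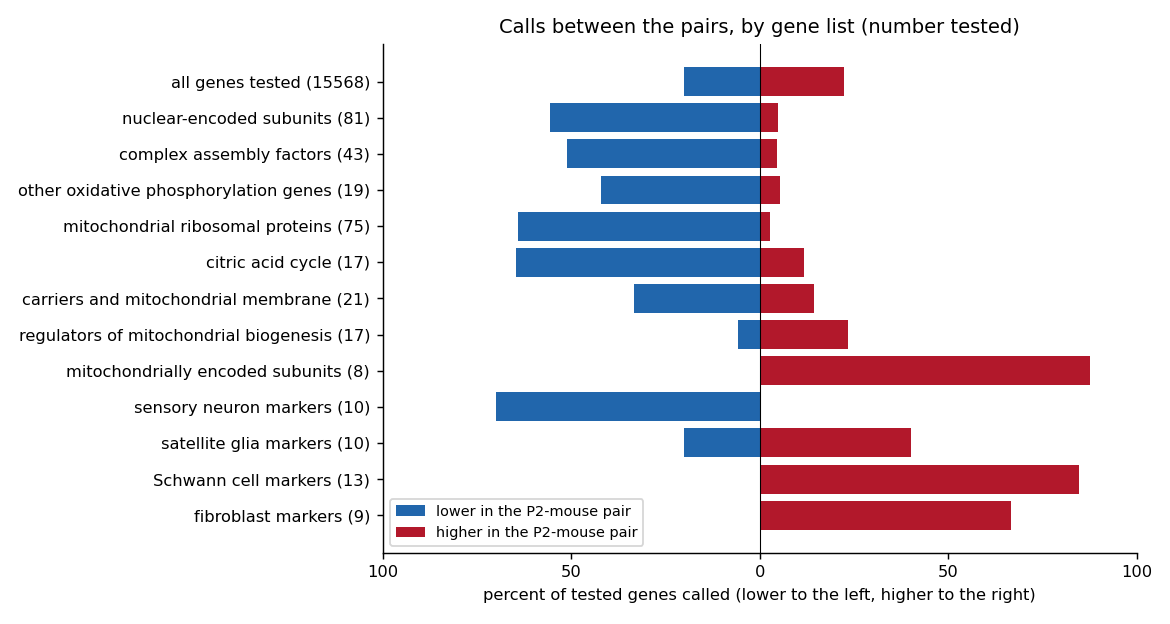
Percent of the tested genes of each list called lower (left, blue) or higher (right, red) in the P2-mouse pair, with the number tested in brackets. Subunits, assembly factors, mitochondrial ribosomal proteins and sensory neuron markers lie mostly to the left, and mitochondrially encoded subunits, Schwann cell and fibroblast markers to the right.

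Transcripts of mitochondrial DNA went the other way. The 13 mitochondrially encoded subunits summed to 17610, 18580, 10050 and 10530 CPM, and 7 of the 8 tested rose, against 22.3% of all genes, with a median of 0.92. mt-Nd1, a membrane subunit of complex I, rose by 0.98 on the log2 scale (adjusted p = 0.000165), and mt-Co1 did not pass, at 0.27. The ratio of nuclear to mitochondrial subunit CPM was 0.899 and 0.863 in the P2-mouse pair and 1.96 and 1.84 in the embryo pair. Some of the 13 add nothing to the sum: mt-Atp6, mt-Atp8 and mt-Nd4l were at 0 counts and mt-Co2 and mt-Co3 at 0.0575 CPM or less in every library. With the offsets for GC content and length, 6 of the 8 were called higher, against 13.7% of all genes, and the median was 0.43.

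Marker genes of cell types moved with the pairs as well, where 20.0% of all genes were called lower and 22.3% higher. Of 10 sensory neuron markers 7 fell and none rose (median -0.52); Tubb3, neuronal tubulin, fell by 1.58 on the log2 scale. Of 13 Schwann cell markers 11 rose (median 2.11) and of 9 fibroblast markers 6 rose (median 2.24), with none lower in either list, and of 10 satellite glia markers 4 rose and 2 fell. Of 5 tested erythroid markers 3 rose (median 1.82), with sums over the list of 44.0, 56.8, 16.9 and 5.26 CPM, and of 11 endothelial and mural markers 6 rose and 1 fell (median 1.22), with sums from 96.5 to 113.6 CPM. None of 4 tested macrophage markers was called. The part of these cell types in the subunit genes' difference was not tested.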

How the data were processed

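RNA of Ret-EGFP-positive cells of mouse dorsal root ganglia was amplified with a SMARTer low-input kit and sequenced in 4 libraries, per the labels. The authors deposited a read count per gene, made with featureCounts 1.4.5 (Subread) on the build GRCm38.p2 according to the submitters' processing notes. CPM, as deposited, is the count scaled by the library's sum of gene counts, and the deposited RPKM values are those CPM per kilobase of exon length, per the file headers; both were recomputed from the counts. The aligner, annotation release, strand setting and handling of multiply matching reads were not given in those sources. Symbols were taken from GENCODE M21 for 40254 genes (97.3%), and promoter sequences from RefSeq (GRCm38.p6). No protein sequence was used.

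Counts were tested with edgeR 4.0.16 (R 4.3.3) by the quasi-likelihood F test with TMM scaling, filterByExpr at a minimum count of 10 and a total of 15, and p-values adjusted after Benjamini and Hochberg (threshold 0.05) over all genes; the SE is the fold change over the root of the F statistic. P-values measure the spread between the animals of a group. Between the sexes, the spread of the males takes in the difference between male A and the embryo pair, and the spread of the single female was taken to equal it. Where a fit leaves a single library on a side of the pairs, the p-value rests on the spread of the other side alone. The pairs were taken from the pool labels, and were compared because earlier results of these data had shown the libraries to part this way. The number of calls between the pairs is therefore no independent support for that split. Alternatives were RLE size factors, DESeq2 1.42.0, limma-voom (limma 3.58.1), each library left out, the other grouping as a term, no filter or a floor of 5 CPM on the mean, and offsets for GC content and exon length fitted per library with mgcv 1.9.3. Shared sequence was counted as 50-base words of GENCODE transcripts found in other genes.

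Members and gene lists were chosen with earlier results of these data known. Genes were named by a rule: the 2 highest and 2 lowest of each complex, the 6 largest falls and the rises between the pairs with a mean of at least 5 CPM, 3 genes per direction between the sexes, isoform groups, complex II and 7 catalytic subunits; a few others were named after their values were seen. Of the 12 pseudogene matches left out, 10 were among the genes counted, and none of these had above 1.73 CPM. Sequence copies annotated under other names are not among these matches. Counting error alone is covered by the limits given for a count of 0.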

Additional observations from a re-analysis of the deposited data

How the results depend on the processing

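The counts of 45 lower and 4 higher genes between the pairs stayed within 1.5 times under RLE scaling, both filters, DESeq2 and limma-voom. With sex as a term, which leaves 1 residual degree of freedom, 25 genes were lower and 1 higher; with the offsets and sex as a term 9 were lower and 1 higher, with a median of -0.22. Leaving out each library gave 26 to 50 lower, 1 to 6 higher and medians from -0.45 to -0.36; the lowest count of lower genes was without female A (26 lower, 2 higher), and without male A 30 were lower and 1 higher. Over all genes the median between the pairs was -0.0015 with sex as a term and -0.051 with the offsets and that term. With each library left out it ranged from -0.012 to 0.018 over all genes. The subunit median lay below that of all genes in each of these fits. They leave 1 library on a side, so their counts of calls were not set against all genes. Between the sexes the subunit median was -0.0503 with the pool label as a term, -0.165 with the offsets and -0.0292 with both. Leaving out each male gave 0 to 30 lower, 0 to 1 higher and medians from -0.38 to -0.26; the 30 and 1 came without male A, where sex and pool label coincide.

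Some fold changes took the opposite sign. Between the pairs, with the offsets alone and with sex as a term beside them, they were 0.0425 and 0.068 for Atp5a1, 0.20 and 0.26 for Atp5g2, 0.039 and 0.0504 for Cox7a2, -0.15 and -0.18 for Cox7b, 0.0816 and 0.0681 for Cox8a, 1.4e-05 and 0.00413 for Ndufb9 and -0.39 and -0.34 for Ndufs1. Atp5b was at -0.00131 with sex as a term. With 1 library left out, Atp5b ranged from -0.251 (without male B) to 0.296, Atp5g2 from -0.784 to 0.693 (without male C), Cox6a1 from -0.0813 (without male B) to 0.323 and Cox7b from -0.00775 (without male C) to 0.124. Between the sexes Ndufb2 was at -0.36 with the pool label as a term and -0.32 with offsets and that term, and ranged from -0.00432 (without male B) to 0.778 with 1 male left out. The cause was not tested. Cox5a lost its call with DESeq2. Of the 49 called genes, 28 were still called in the same direction without female A, 31 without male A, 42 without male B and 48 without male C. The 7 lost without male B were Atp5k, Cox6b2, Cox7a2, Ndufa13, Ndufs4, Uqcr11 and Uqcrfs1. Among the genes named by rule, leaving out either female A or male A ended the call of Atp5a1, Cox6a2, Cox6b1, Ndufa4 and Cox5a. Sdha lost its call without female A, Ndufb2 without male A, and Uqcrfs1 without female A or male B. Uqcrb lost its call without male A or male C, and Cox6b2 and Cox7a2 without female A, male A or male B. Cox8a and Atp5b were called lower without male B, and Atp5b and Cox6a1 were called without male C. By the sum of RPKM in place of the median, complex I ranked 1, complex IV 2, complex V 3, complex III 4 and complex II 5. No paired analysis was possible because the groups share only the letter A. Cox6a2, Cox7a1, Cox7b2, Cox4i2, Atp5g2, Ndufa4l2, Cox8b and Cox8c had at most 57 counts in any library.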
